A study of Homo sapiens with 6 samples.

Results

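The 43 genes described here encode keratins, the proteins of adherens junctions, tight junctions and desmosomes, the transcription factors and products of intestinal differentiation, and 3 mesenchymal markers. They were listed by symbol, with earlier results of these data known, and all 43 had an entry among the 19871 gene symbols of the deposited tables. Of these, 32 reached a mean of at least 50 estimated counts over the 3 groups and 11 did not, and fold changes are given for the 32 only.

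RNA was sequenced by the authors as lncRNA-seq libraries from HCT116 cells, an established line of colorectal cancer, with 2 libraries in each of 3 groups. The NC group was the negative control, and what its cells received is not stated in the labels. The GAS5 group received a GAS5 plasmid, GAS5 being a long non-coding RNA, and the siYAP group received siRNA against YAP, the transcriptional coactivator at the end of the Hippo pathway, although the labels list all 3 groups under siRNA. All groups were HCT116 cells in medium with fetal bovine serum, and both treatments were transfections of a single cell line. The kind of nucleic acid transfected, plasmid or siRNA, cannot be told apart from the target in any of the comparisons. The purpose stated in the series was to learn how GAS5 affects genes regulated by YAP. The deposited values are 1 mean per group, so there is no SD, no test and no p-value for any gene. Intervals given below are 95% Wilson intervals of the ratio of 2 counts, on the log2 scale, and cover counting error only, not the spread between cultures.

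The mean counts of a group summed to 27206123 for NC, 25521577 for GAS5 and 26298036 for siYAP. The 43 genes held 0.958% of the counts for NC, 0.993% for GAS5 and 1.17% for siYAP. YAP1, the gene targeted by the siRNA, had 3480 mean counts in NC cells, 2679 in GAS5 cells and 1444 in siYAP cells. Its log2 fold change against NC was -1.15 in siYAP (interval -1.22 to -1.09) and -0.27 in GAS5 (-0.32 to -0.22), so that YAP1 mRNA was lowest in the group that received the siRNA. The GAS5 transcript is long non-coding and is not analysed here.

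Epithelial cells hold each other through junction complexes. In adherens junctions, cadherins bind across the gap between cells and are tied to actin by catenins. Tight junctions, built of claudins and occludin on a scaffold of ZO proteins, seal the space between cells, and desmosomes anchor the keratin filaments. In the gut, transcription factors such as CDX2 and HNF4A direct the genes of the mature enterocyte, whereas ZEB1 and SNAI2 repress cadherin and other epithelial genes.

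The labelled cell type was checked against these genes. The keratins of simple epithelia stood among the highest mRNAs of the NC cells when levels were compared per transcript length, in FPKM. KRT8 was at 1274 FPKM, KRT19 at 977 FPKM and KRT18 at 835 FPKM, which were ranks 56, 80 and 90 of the 15492 symbols above 0 in NC. By contrast VIM, the intermediate filament of mesenchymal cells, was at 2.48 FPKM, and the ratio of KRT8 to VIM was 515 in NC, 814 with GAS5 and 791 with siYAP. Other markers were less clear. Of 9 markers of colorectal epithelium 6 passed the minimum, CDX2 among them at 3.52 FPKM in NC. VIL1, LGALS4 and GPA33 did not, with 0, 2 and 7 mean counts in NC. S100A4, from a list of 10 other mesenchymal genes, was at 140 FPKM in NC, near EPCAM at 147 FPKM.

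The products of the mature gut were at or near 0. None of the 6 differentiation products reached the count minimum in these libraries. TFF3, a trefoil peptide of goblet cells, had 0 mean counts in NC cells, 0.5 in GAS5 cells and 0 in siYAP cells, and VIL1, the villin of the microvillus core, had 0, 6 and 1. CEACAM5, the carcinoembryonic antigen, had 0, 0 and 1.5 mean counts, and its relative CEACAM6 had 0, 0.6 and 0. LGALS4, an intestinal galectin, had 2, 5.5 and 1 mean counts, and MUC1, a membrane mucin, had the most of the 6 at 28, 28 and 23. KRT20, the keratin of differentiated gut epithelium, was likewise low at 13, 12 and 17 mean counts, and CDX1, a homeobox factor of the intestine, was at 0 in every group. A count of 0 allows up to 3 counts over the 2 libraries of a group. The label of intestinal differentiation was therefore not borne out by the levels of its products, and it describes only what these genes are known for.

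The 11 genes under the minimum also included CLDN1, with 6, 2.5 and 6.5 mean counts in NC, GAS5 and siYAP, CLDN2 with 8, 5 and 6, and SNAI2. The nearest genes to the minimum were MUC1 and KRT20 below it, with means of 26.3 and 14.0 over the groups, and ZEB1 and VIM above it, with 90.0 and 110. No gene lay close to the limit of 50.

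**Figure D1:**
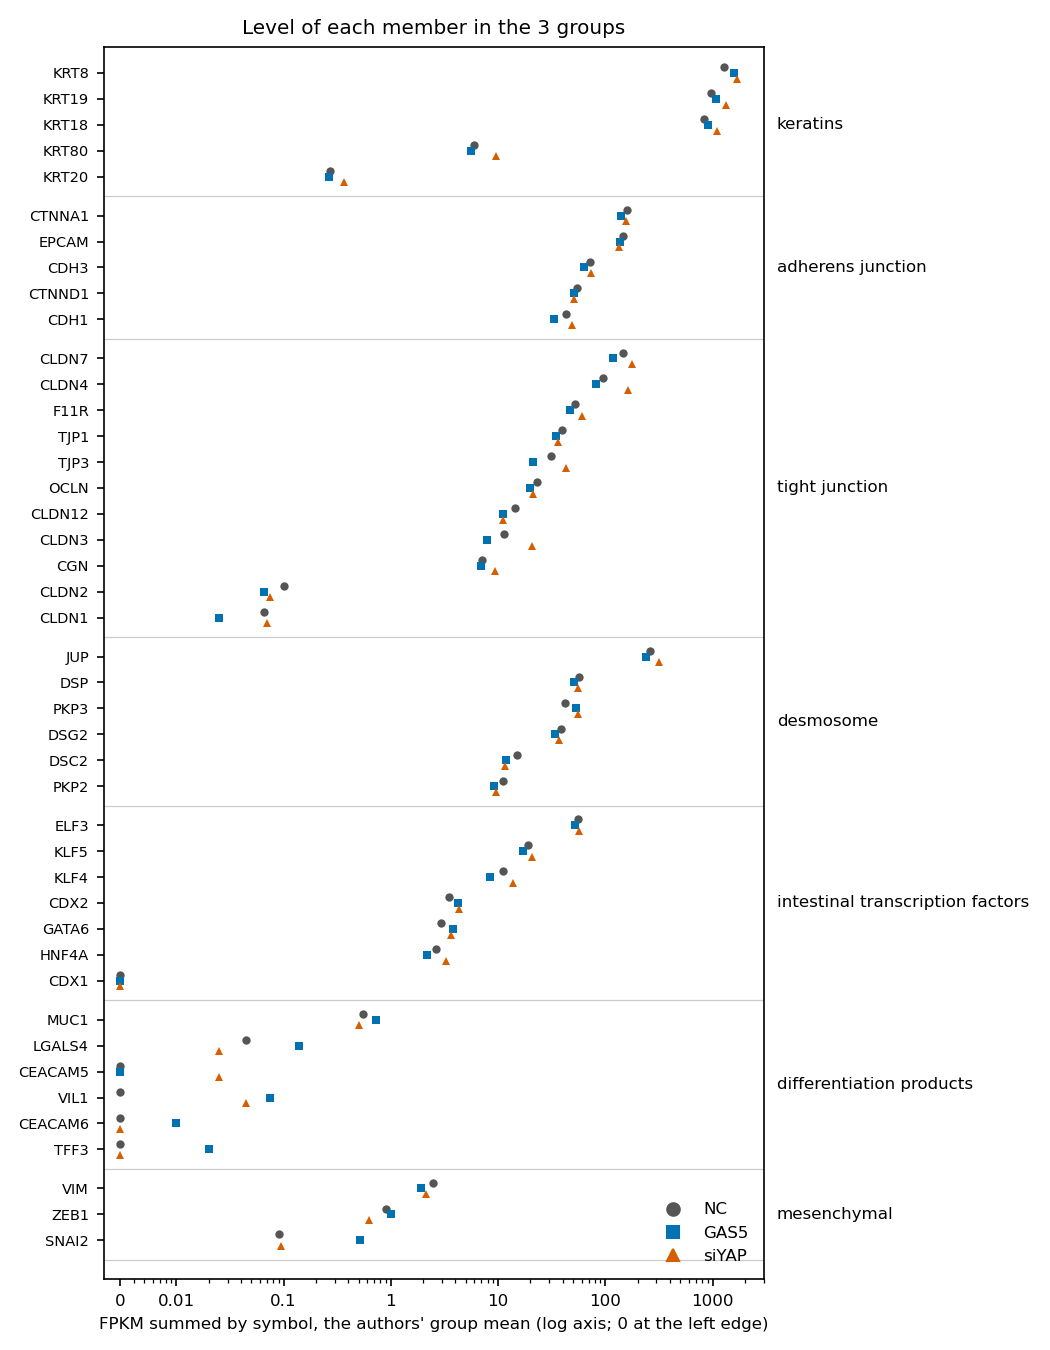
Level of each of the 43 genes in NC (circles), GAS5 (squares) and siYAP (triangles), in FPKM summed by symbol on a log axis, grouped by role; each point is the authors' group mean, with no error, and sums at 0 are drawn at the left edge. KRT8, KRT19 and KRT18 lie furthest right, at 835 to 1697 FPKM, and the differentiation products lie below 1 FPKM in every group.

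The cells were compared in 3 ways, GAS5 with NC, siYAP with NC, and GAS5 directly with siYAP. The first 2 use the same NC means and are not independent of each other, and their values are given side by side without a measure of likeness. The direct comparison is the difference of these 2, apart from the scaling and the prior count, so it is not independent of them either. Fold changes were taken after TMM scaling, the mean counts printed are those before it, and a log2 fold change of 1 is a 2-fold change. In bulk RNA, fewer cells that express a gene and less of its RNA per cell cannot be told apart.

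In GAS5 cells most of the junction genes were slightly lower than in NC. The median log2 fold change of the 32 genes was -0.14 (lowest -0.56, highest 0.38), against -0.01 for all 11907 gene sums that passed the same minimum, and 25 of the 32 were below 0, among all gene sums 6156 of 11907. None of the 32 was past 2-fold, where 1.06% of all gene sums were past it in either direction. Of the 32, 2 genes, CLDN3 and TJP3, were lower by at least 0.5 on the log2 scale, where 3.48% of all gene sums were, and 0 were higher by as much, where 3.58% were.

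In siYAP cells most of the list lay above NC. The median log2 fold change was 0.26 (lowest -0.44, highest 0.92), against 0.02 for all gene sums, and 22 of the 32 were above 0, among all gene sums 6307 of 11907. With total counts, TMM on gene sums or the ratio of FPKM, 20 of the 32 were above 0. None was past 2-fold, where 0.773% of all gene sums were. KRT19, KRT80, CLDN3, CLDN4 and TJP3 were higher by at least 0.5, that is 5 of 32 beside 5.69% of all gene sums, and 0 were lower by as much beside 5.79%. KRT19 and TJP3 were under 0.5 with TMM on gene sums (both 0.49), which leaves 3, and with total counts (both 0.46) and the ratio of FPKM (0.45 and 0.46). In the last 2 settings ZEB1 was lower by over 0.5, at -0.51 and -0.52.

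Set directly against siYAP, 31 of the 32 genes were lower in GAS5, among all gene sums 6436 of 11907. Of the 32, 16 were below NC in GAS5 and above NC in siYAP, so their sign here follows from the first 2 comparisons. With scaling by total counts or with the ratio of FPKM, 2 and 4 of the 32 were above 0 instead of 1. The median was -0.21 (lowest -1.45, highest 0.46), against -0.03 for all gene sums. CLDN3, CLDN4 and TJP3, 3 of the 32, were past 2-fold, all lower in GAS5, where 2.37% of all gene sums were past 2-fold in either direction. In total 9 were lower by at least 0.5, where 10.3% of all gene sums were, and 0 were higher by as much, where 8.09% were. These 9 were KRT80, CDH1, CLDN3, CLDN4, CLDN7, TJP3, CGN, HNF4A and KLF4, and 5 of them belong to the tight junction. With annotated transcripts only, CGN at -2.33 and ZEB1 at 2.23 were past 2-fold as well, which makes 5. For ZEB1 this leaves out assembled transcripts with 55.1%, 50.4% and 87.6% of its counts in NC, GAS5 and siYAP. The count minimum was applied to its full sum, and its most abundant annotated transcript had 41.9, 25.3 and 3.50 mean counts.

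**Figure D2:**
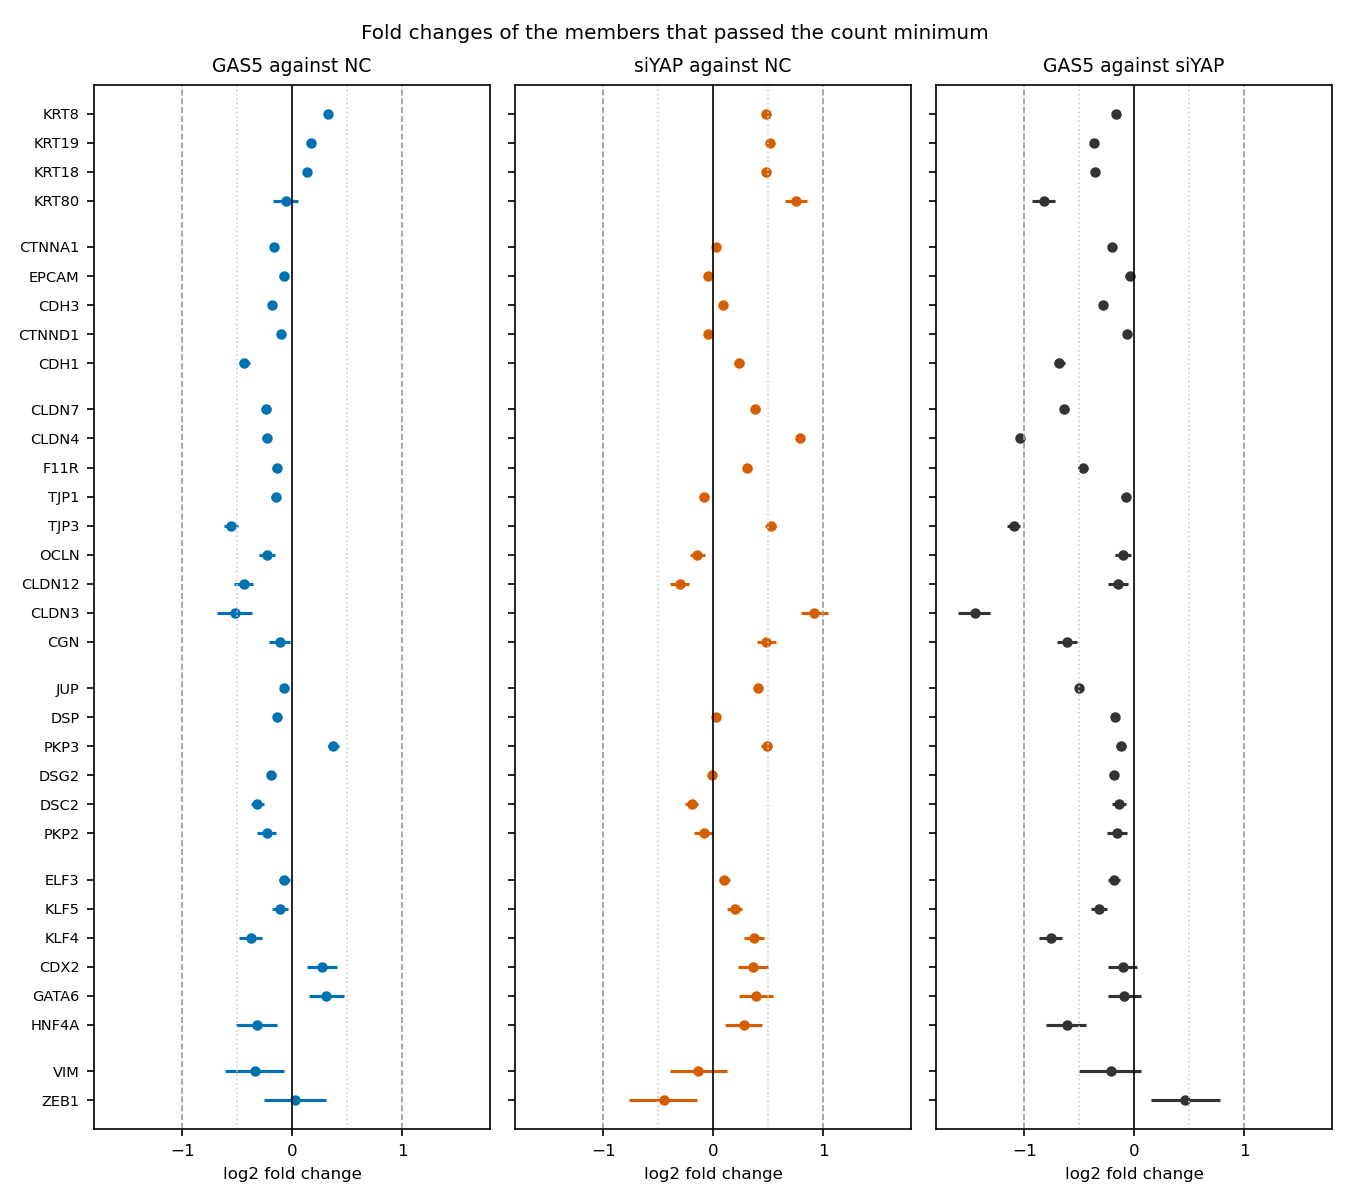
Log2 fold change of the 32 genes that passed the count minimum, in GAS5 against NC (left), siYAP against NC (middle) and GAS5 against siYAP (right); points are the values from the group means, bars are 95% Wilson intervals for counting error only, and dotted and dashed lines mark 0.5 and 1. Tight junction genes reach furthest from 0, with CLDN3 at -0.52, 0.92 and -1.45.

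**Figure D3:**
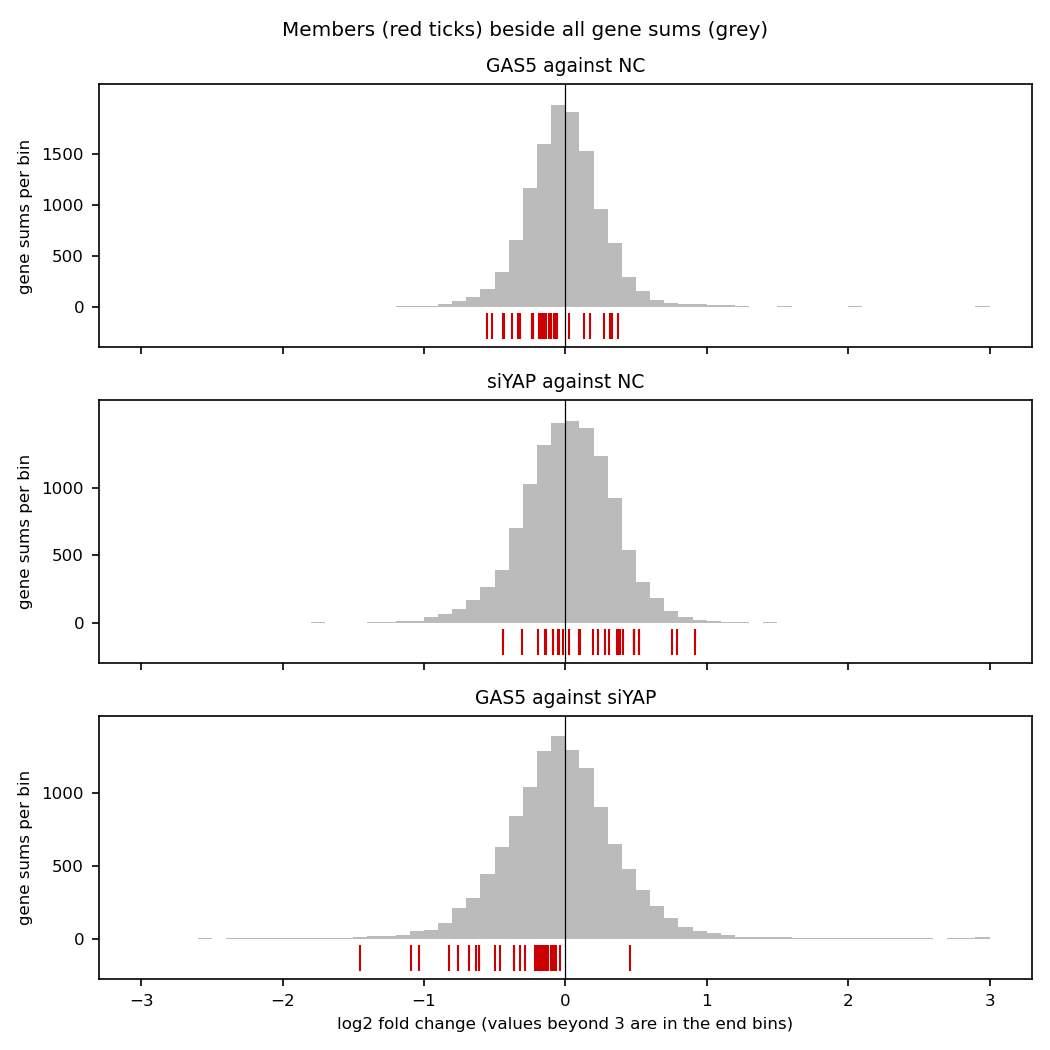
Number of gene sums per bin of log2 fold change (grey, 11907 gene sums, bins of 0.1) with the 32 genes as red ticks, for the 3 comparisons. Most ticks lie in the body of the grey distribution, with medians of -0.14, 0.26 and -0.21, while CLDN3 in GAS5 against siYAP, the tick furthest from 0, ranks 23rd lowest of all gene sums.

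Of the 6 roles with a gene above the minimum, tight junction genes had the medians furthest from 0 in GAS5 against NC and in GAS5 against siYAP, while in siYAP against NC the keratins did, with 0.50. Of 11 listed, 9 passed the minimum, and all 9 were below 0 in GAS5 against NC, with a median of -0.23. In siYAP against NC 6 of 9 were above 0, with a median of 0.38. Among all 11907 gene sums 6156 were below 0 in the first comparison and 6307 were above 0 in the second. The summed level of the 11 listed genes was 421 FPKM in NC, 348 FPKM with GAS5 and 544 FPKM with siYAP.

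CLDN3, a sealing claudin, had 403 mean counts in NC cells, 260 in GAS5 cells and 706 in siYAP cells, so GAS5 was the low group and siYAP the high one. Its change on the log2 scale was -0.52 (interval -0.68 to -0.36) in GAS5 and 0.92 (0.80 to 1.05) in siYAP, and -1.45 (-1.60 to -1.31) between them. Among all 11907 gene sums it was the 23rd lowest in GAS5 against siYAP and the 57th highest in siYAP against NC. CLDN4, a claudin found beside it in many simple epithelia, had 5405 mean counts in NC cells, 4266 in GAS5 cells and 8650 in siYAP cells. The log2 fold change was -0.23 (-0.27 to -0.19) in GAS5, 0.79 (0.76 to 0.83) in siYAP and -1.04 (-1.08 to -1.0) between them. The order of the groups was thus that of CLDN3, and the greater part of the distance lay between NC and siYAP.

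The 2 claudin genes are neighbours. In GENCODE 29 on GRCh38, CLDN3 is at chr7:73768997-73770270 on the minus strand and CLDN4 at chr7:73799542-73832693 on the plus strand. Between these outer bounds lie 29271 bases. The RefSeq start of CLDN4 lies further from CLDN3, with its window at chr7:73830746-73830995. Few of their reads can be confused, since 1.8% of the 50-base stretches of the main CLDN3 transcript also occur in CLDN4, and 1.23% the other way. The level of CLDN4 per length was 8.39 times that of CLDN3 in NC, 10.5 times with GAS5 and 7.91 times with siYAP.

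The 250 bases before the start of CLDN3, the gene furthest from 0, are shown from RefSeq (GRCh38.p14, chr7:73770271-73770520, minus strand), written 5′ to 3′ in lower case. No exon of GENCODE 29 lies in this window.
CLDN3: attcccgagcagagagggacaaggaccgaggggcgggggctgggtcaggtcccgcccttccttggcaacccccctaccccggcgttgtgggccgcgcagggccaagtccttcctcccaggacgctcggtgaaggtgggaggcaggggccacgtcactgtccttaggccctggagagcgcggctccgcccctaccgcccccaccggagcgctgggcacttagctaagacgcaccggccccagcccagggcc

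The stretch is 71.6% G and C. It has no capitals because none of the motifs searched for on both strands was in it, namely the E-box CACCTG, the TEAD motif GGAATG, the KLF motif CACCC and the CDX motif TTTATG. The RefSeq table held such a window for 29 of the 43 genes, 22 of them among the 32 that passed. CDH1, EPCAM, KRT18 and KRT19 were among those without one. CACCTG was in 8 of the 22 windows (36.4%), among them those of OCLN, TJP1, DSP, DSG2, DSC2, HNF4A, ELF3 and ZEB1, and in 17.5% of all 34943 promoter windows. CACCC was in 17 of the 22 (77.3%) and in 54.7% of all windows. GGAATG and TTTATG were in 0 of the 22, and in 11.9% and 9.66% of all windows. These are matches of letters in a short window and were not tested.

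TJP3, which encodes the scaffold protein ZO-3, had 2712 mean counts in NC cells, 1709 in GAS5 cells and 3602 in siYAP cells. Its log2 fold change was -0.56 (-0.62 to -0.50) in GAS5, 0.52 (0.47 to 0.58) in siYAP and -1.09 (-1.15 to -1.04) between them, so NC lay about midway. Its relative TJP1, which encodes ZO-1, had 5620, 4702 and 4890 mean counts in NC, GAS5 and siYAP, with log2 fold changes of -0.15 and -0.09 against NC and -0.07 (-0.12 to -0.03) between the treatments. The ZO genes thus differed in size of change, by a comparison that has no replicate check.

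CLDN7 had 4489 mean counts in NC cells, 3528 in GAS5 cells and 5410 in siYAP cells. It was the claudin with the highest level per length in NC, at 146 FPKM, and its log2 fold change was -0.24 in GAS5, 0.38 in siYAP and -0.63 (-0.68 to -0.59) between them. Of its main transcript, 14.7% of the 50-base stretches also occur in a gene annotated as AC003688.1, so its counts are uncertain. CGN, the cytoplasmic plaque protein cingulin, had 977, 837 and 1263 mean counts in NC, GAS5 and siYAP, with a log2 fold change of -0.61 (-0.70 to -0.52) between the treatments. Its 2 main transcripts differed far more than the gene, as described with the transcripts.

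In 2 other tight junction genes, as in TJP1, NC was the high group. CLDN12 had 1300 mean counts in NC cells, 887 in GAS5 cells and 971 in siYAP cells, so NC was the high group, with log2 fold changes of -0.44 and -0.31 against NC. OCLN, occludin, had 1867, 1477 and 1561 mean counts and was also highest in NC, though 31.2% of the 50-base stretches of its main transcript occur in the pseudogene OCLNP1. F11R, the adhesion molecule JAM-A, had 4710, 3960 and 5399 mean counts and the group order of CLDN3, with log2 fold changes of -0.14 and 0.31 against NC and -0.47 between the treatments. However, 96.0% of the stretches of its main annotated transcript also belong to a second annotated gene, AL591806.3, so that reads from these stretches cannot be assigned to 1 of the 2. That transcript held 17.4% of the F11R counts in NC, 16.8% with GAS5 and 15.7% with siYAP. The assembled F11R transcripts were not searched for shared stretches. CLDN1 and CLDN2 were under the minimum in all groups, so the listed claudins above it were CLDN7, CLDN4, CLDN12 and CLDN3, in the order of their NC levels per length.

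The keratins were the most abundant of the groups. The 4 that passed were all higher in siYAP than in NC, where 6307 of all 11907 gene sums were above 0. The summed level of the keratins was 3092 FPKM in NC, 3562 FPKM with GAS5 and 4152 FPKM with siYAP. KRT8 had 65346 mean counts in NC cells, 76139 in GAS5 cells and 84417 in siYAP cells, with log2 fold changes of 0.33 (0.32 to 0.34) and 0.48 (0.47 to 0.49) against NC. Its partner KRT18 had 33810, 34438 and 43659, with 0.14 (0.12 to 0.15) and 0.48 (0.47 to 0.50). Both treatments were above NC for KRT8, while for KRT18 the siYAP group stood apart from the other 2.

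KRT8 and KRT18 form the obligate filament pair of simple epithelia. Their outer gene bounds in GENCODE 29 overlap on opposite strands of chromosome 12, at chr12:52897187-52949954 and chr12:52948871-52952901. The RefSeq window before the start of KRT8, chr12:52926470-52926719, does not reach KRT18. The libraries were made to keep strand, but whether the counting used it is not given in the sources used here. GENCODE 29 names 50 pseudogenes of KRT8 and 68 of KRT18, and 37.1% and 35.1% of the 50-base stretches of their main transcripts occur in another annotated gene. Their counts are therefore uncertain in level. The ratio of KRT8 to KRT18 in FPKM was 1.53 in NC, 1.75 with GAS5 and 1.53 with siYAP.

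KRT19, a type I keratin of ducts and gut, had 37514 mean counts in NC cells, 39198 in GAS5 cells and 49741 in siYAP cells. Its change on the log2 scale was 0.17 in GAS5, 0.52 (0.51 to 0.54) in siYAP and -0.36 between them, and 1.79% of its stretches were shared with another gene. KRT80, a type II keratin of low abundance, had 638, 568 and 993 mean counts in NC, GAS5 and siYAP. The log2 fold change was -0.06 (-0.18 to 0.06) in GAS5, an interval that holds 0, 0.75 (0.65 to 0.85) in siYAP and -0.82 (-0.93 to -0.72) between them. For both, siYAP was the high group and GAS5 lay near NC.

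Among adherens junction genes, CDH1 was the only 1 of the 5 to differ by 0.5 or more in a comparison. CDH1, E-cadherin, had 3972 mean counts in NC cells, 2723 in GAS5 cells and 4310 in siYAP cells. Its log2 fold change was -0.44 (-0.49 to -0.39) in GAS5, 0.23 (0.19 to 0.28) in siYAP and -0.68 (-0.73 to -0.63) between them, so most of the distance lay between NC and GAS5. It had the lowest level of the 5 per length in NC, 43 FPKM.

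CDH3, P-cadherin, lies beside CDH1 on chromosome 16 and had 7658, 6274 and 7548 mean counts in NC, GAS5 and siYAP, with log2 fold changes of -0.18 and 0.09. The level of CDH3 per length was 1.69 times that of CDH1 in NC, 1.93 times with GAS5 and 1.52 times with siYAP. CTNNA1, the alpha-catenin that ties cadherin to actin, was highest of the 5 at 160 FPKM in NC, and had 16437, 13594 and 15438 mean counts. Its change on the log2 scale was -0.17 (-0.19 to -0.14) in GAS5 and 0.02 (0.00 to 0.05) in siYAP, and the latter changed sign with the scaling. CTNND1, the p120 catenin that keeps cadherins at the membrane, was at -0.10 and -0.05 against NC. For EPCAM, an epithelial adhesion molecule, the log2 fold changes were -0.08 and -0.05, and both were above 0 when assembled transcripts were left out.

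The desmosome genes differed less. All 6 passed the minimum, none reached 0.5 in any comparison, and the medians were -0.16 in GAS5, 0.01 in siYAP and -0.17 between them. JUP, plakoglobin, which serves both desmosomes and adherens junctions, was highest at 261 FPKM in NC and had 19323 mean counts in NC cells, 16974 in GAS5 cells and 23668 in siYAP cells. Its log2 fold change of -0.50 (-0.52 to -0.48) between the treatments fell just short of the limit before rounding, and passed it with DESeq2 size factors, no low-count filter and annotated transcripts only. PKP3, plakophilin 3, had 3031, 3646 and 3920 mean counts and was the only desmosome gene above NC in GAS5, with log2 fold changes of 0.38 (0.33 to 0.42) and 0.49 (0.44 to 0.53). With annotated transcripts only, PKP3 was past 0.5 in both, at 0.75 and 0.86.

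DSP, desmoplakin, which binds keratin, had 13827, 11642 and 12992 mean counts in NC, GAS5 and siYAP, with log2 fold changes of -0.14 and 0.02. The desmosomal cadherins DSG2 and DSC2 had log2 fold changes of -0.19 and -0.32 in GAS5, and of -0.01 and -0.19 in siYAP. PKP2, plakophilin 2, had the lowest level per length in NC, 11.2 FPKM, with 1229, 970 and 1069 mean counts, and 7.10% of its stretches were shared with another annotated gene. DSC2 and PKP2 were thus highest in NC, unlike JUP. So was DSG2, though its interval in siYAP against NC, -0.05 to 0.02, held 0.

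Of the transcription factors, 6 of 7 passed, and all 6 were above 0 in siYAP against NC, by 0.10 to 0.39 on the log2 scale. Among all gene sums 6307 of 11907 were above 0 there. KLF4, a zinc finger factor of post-mitotic gut epithelium, had 868 mean counts in NC cells, 620 in GAS5 cells and 1038 in siYAP cells. The log2 fold change was -0.38 (-0.48 to -0.27) in GAS5, 0.37 (0.28 to 0.46) in siYAP and -0.76 (-0.86 to -0.66) between them. KLF5, known from proliferating crypt cells, had 1658, 1424 and 1752 mean counts, with -0.11 and 0.19 against NC and -0.32 between the treatments.

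HNF4A, a nuclear receptor of liver and gut, had 269 mean counts in NC cells, 199 in GAS5 cells and 302 in siYAP cells. Its level was the lowest of the factors above the minimum, 2.62 FPKM in NC, and its log2 fold change was -0.61 (-0.80 to -0.44) between the treatments. CDX2, the homeobox factor that specifies intestine, had 396, 444 and 471 mean counts, with 0.27 (0.14 to 0.41) and 0.37 (0.23 to 0.50) against NC. GATA6 had 300, 346 and 364 mean counts, with 0.31 (0.16 to 0.47) and 0.39 (0.24 to 0.55). For CDX2 and GATA6 both treatments were above NC, and their intervals between the treatments, -0.24 to 0.03 and -0.24 to 0.06, held 0. ELF3, an epithelial ETS factor, was highest at 55.1 FPKM in NC, with 3320, 2934 and 3289 mean counts and log2 fold changes of -0.07 and 0.10, although 20.2% of its stretches were shared with AL691482.3.

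The 3 listed mesenchymal markers were low in every group. VIM had 128 mean counts in NC cells, 94.0 in GAS5 cells and 108 in siYAP cells, and its interval in siYAP against NC, -0.40 to 0.12, held 0. ZEB1 had 103, 97.5 and 69.5 mean counts, with a log2 fold change of 0.03 (-0.25 to 0.31) in GAS5 and -0.44 (-0.76 to -0.14) in siYAP. At 0.46 (0.16 to 0.78) it was the 1 gene of the 32 that was higher in GAS5 than in siYAP, and it was past 0.5 there with total counts (0.52) and the ratio of FPKM (0.68). SNAI2, which encodes Slug, had 5 mean counts in NC cells, 27 in GAS5 cells and 4.5 in siYAP cells, below the minimum, and the ratio of GAS5 to NC was 5.82 (interval 3.0 to 11.3).

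Sums by symbol can hide a shift between transcripts. For 19 of the 32 genes the share of the most abundant transcript moved by under 5 percentage points between groups, with a median move of 3.55 points over the 32. In 3 genes there was a transcript of at least 50 mean counts and at least 10% of its gene whose share moved by 10 points or more, CGN, PKP3 and TJP3. How many of all genes hold such a transcript was not counted. The most abundant ZEB1 transcript, at 23.6 mean counts, was under this limit. Its share was 40.7% in NC, 26.0% with GAS5 and 5.03% with siYAP. For EPCAM and F11R the most abundant transcript was 1 that the authors assembled from the reads.

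In CGN, ENST00000271636 held 55.9% of the counts in NC, 21.7% with GAS5 and 77.5% with siYAP, and the assembled transcript TCONS_00004176 held 43.8%, 76.7% and 22.5%. In mean counts the annotated transcript went from 546 in NC to 182 in GAS5 and 979 in siYAP, while the sum of the gene moved far less. When transcripts without an Ensembl identifier were left out, CGN was at -1.38 in GAS5 against NC and -2.33 in GAS5 against siYAP. In PKP3 the assembled transcript TCONS_00018559 had 693 mean counts, 22.9%, in NC and 0 in both treatments, while ENST00000331563 held 74.8%, 97.6% and 97.4%. In TJP3, ENST00000541714 held 24.4% in NC, 14.4% with GAS5 and 23.6% with siYAP, so it was lower in GAS5 by more than the gene was. An estimated split between overlapping transcripts has no error in these tables, and the part of the estimation in these shifts was not tested.

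**Figure D4:**
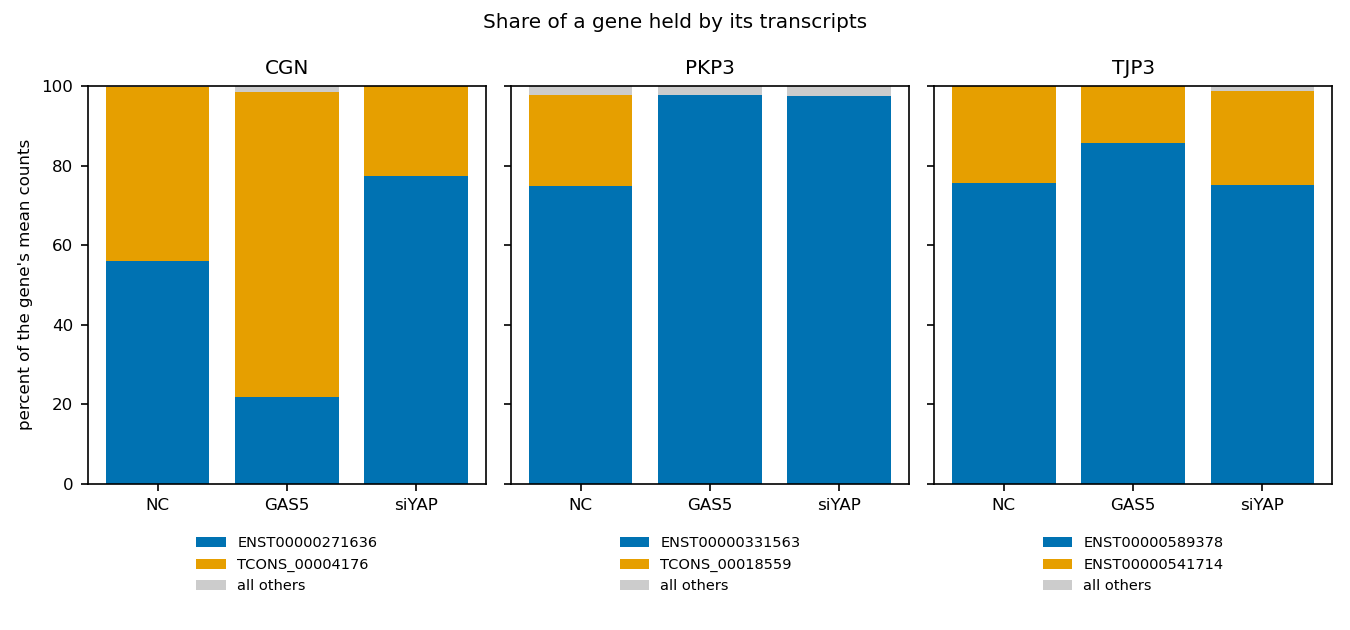
Percent of the mean counts of CGN, PKP3 and TJP3 held by each named transcript in NC, GAS5 and siYAP (stacked bars from 0 to 100%, no replicates). The annotated CGN transcript holds 55.9% in NC, 21.7% with GAS5 and 77.5% with siYAP, and the assembled PKP3 transcript is present in NC only.

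Other genes of the same structures were followed in 7 lists of 92 genes. MUC2, 1 of the 92, is not analysed here. Of 11 other epithelial keratins 5 passed the minimum, and all 5 were above 0 in siYAP against NC, by 0.33 to 0.97. Among all gene sums 6307 of 11907 were above 0 there. KRT7 and KRT81 were higher by at least 0.5, beside 5.69% of all gene sums. KRT81 had few counts, 52.3, 73.2 and 84.4 in NC, GAS5 and siYAP, and was also at 0.58 in GAS5 against NC. It is close in sequence to KRT86, so its counts are uncertain. KRT7, a keratin of ductal epithelia, had 1432 mean counts in NC cells, 1456 in GAS5 cells and 2584 in siYAP cells, so siYAP was the high group. Of 10 other desmosome genes 5 passed, and all 5 were below 0 in GAS5 against NC, where 6156 of all 11907 gene sums were. PPL, periplakin, was furthest at -0.63.

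Other adherens junction genes stayed closer to 0. Of 10, 7 passed, none reached 0.5 in any comparison, and the medians were 0.06 in GAS5 and -0.03 in siYAP. Of 20 other tight junction genes, 8 passed and 6 were at 0 in all groups. CGNL1, a relative of cingulin, was the 1 past 0.5 in GAS5 against NC, at -0.55, where 3.48% of all gene sums were as low. Among 10 regulators of the epithelial programme 8 passed. In GAS5 against NC 2 were lower by 0.5, beside the same 3.48% of all gene sums. In siYAP against NC 2 were higher, beside 5.69% of all gene sums, and 1 was lower, beside 5.79%. ESRP1, an epithelial splicing factor, and EHF, an ETS factor, were lower in GAS5, at -0.56 and -0.54. OVOL1, a repressor of mesenchymal genes, and SPINT1, a protease inhibitor, were higher in siYAP, at 0.88 and 0.59. GRHL1, a grainyhead factor, went the other way, at -0.58 in siYAP and 0.64 in GAS5 against siYAP.

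Of the 21 other intestinal genes, 4 passed and 10 were at 0 in all groups, FABP1, FABP2, SI and ALPI of the enterocyte among them. None of the 4 differed from NC by 0.5. Of 10 other mesenchymal genes 4 passed. SNAI1, S100A4 and SPARC, 3 of the 4, were higher by 0.5 in siYAP against NC, beside 5.69% of all gene sums. The median of the 4 was 0.56, against 0.02 for all gene sums, unlike VIM and ZEB1, which were below NC. SNAI1, which encodes Snail, had 413, 612 and 570 mean counts in NC, GAS5 and siYAP, with log2 fold changes of 0.67 and 0.58. S100A4, a calcium-binding protein, was not low, at 140 FPKM in NC, and was at 0.16 and 0.55. FN1, fibronectin, was at -0.45 and -0.30. Among those of the 92 genes that passed the minimum, SPARC, a matrix protein, was the only 1 past 2-fold. In siYAP against NC 0.773% of all gene sums were past 2-fold. SPARC had 55.5 mean counts in NC cells, 27 in GAS5 cells and 114 in siYAP cells. It lay near the minimum and passed it only through siYAP, where it was high, so its rise there is not independent of the filter. Its log2 fold change was -0.89 in GAS5, 1.12 in siYAP and -2.01 between them.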

How the data were processed

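The authors sequenced strand-specific lncRNA libraries of HCT116 cells on HiSeq 4000, in 3 groups of 2 libraries. TopHat2 2.1.1 is named in the submitters' processing notes, and the counting tool, genome build and annotation are not given in the sources used here. The authors deposited 2 tables of 92866 mRNA transcripts, 12002 of them assembled, with 1 mean per group. The deposited estimated counts (expected counts) are means over the libraries, not normalized. The deposited FPKM values, the authors' means too, are scaled by length and library size, with 0 listed as 0.001, which was read as 0. The authors' own fold changes, p-values and FDR in these tables were not used. Symbols came from the siYAP table, and 339 transcripts without one were left out of gene sums.

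Counts were summed by symbol and scaled by TMM (edgeR 4.0.16, R 4.3.3) on the transcript table of each pair of means after filterByExpr with a minimum count of 10, and a prior count of 2 was added before the log2 ratio, for genes with a mean of at least 50. The scaling was tested on simulated data. Python 3.11.15 with pandas 2.3.3, numpy 2.4.6 and scipy 1.17.1 was used. Wilson intervals took the counts behind means of 2 libraries, rounded to whole numbers. Shared sequence is the percent of 50-base stretches of the most abundant annotated transcript found in a transcript of another gene of GENCODE 29, whose GRCh38 coordinates were matched to the genes by symbol. No test could be run on group means. Nothing states that the 2 libraries of a group came from separate cultures.

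The genes and lists were chosen with earlier results of these data known. Genes were given in full where they lay 0.5 or more from 0 in log2 in any comparison, or were the highest or lowest of their role by NC level. The alternatives were DESeq2 1.42.0 size factors, total counts, TMM on gene sums, no low-count filter, a prior count of 0.5, the ratio of FPKM, annotated transcripts only and minimums of 50 in NC or a mean of 10.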

Additional observations from a re-analysis of the deposited data

How the results depend on the processing

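No paired analysis was possible because libraries of a group were averaged before deposit, and leaving out a library, the replicate block and the edgeR and DESeq2 tests were likewise not run. With annotated transcripts only, genes past 2-fold numbered 1 in GAS5 against NC (CGN, -1.38), 1 in siYAP against NC (ZEB1, -2.09) and 5 in GAS5 against siYAP (CGN at -2.33 and ZEB1 at 2.23 added), and genes past 0.5 in either direction numbered 4 in GAS5 and 8 in siYAP. These follow from leaving out transcripts that hold part of a gene, for ZEB1 87.6% of its counts in siYAP. The minimum was applied to the full sums. A minimum mean of 10 brought 1 gene past 2-fold in GAS5 (SNAI2). With TMM on gene sums, genes past 0.5 in siYAP numbered 3 in place of 5, since KRT19 and TJP3 came to 0.49. The same 2 genes were under 0.5 with total counts and the ratio of FPKM. With total counts the median was 0.19 in siYAP against NC and -0.15 in GAS5 against siYAP, and with the ratio of FPKM 0.19 and -0.15. The cause of the last was not tested. Log2 values of all 32 genes in 3 comparisons, 96 in all, stayed within their counting intervals with DESeq2 size factors, no low-count filter and a prior count of 0.5. Sign changes numbered 4 with annotated transcripts only, 2 with TMM on gene sums, 5 with the ratio of FPKM and 3 with total counts, and were of CTNNA1, DSP, EPCAM, F11R, DSC2 and GATA6. F11R moved most among these, from 0.31 to -0.02 in siYAP with annotated transcripts only. Transcript shares taken from FPKM for CGN were 54.9%, 20.2% and 77.3% in NC, GAS5 and siYAP. Depth limits the 11 genes under the minimum and, among those above it, ZEB1 and VIM.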

Other observations

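Genes between 10 and 50 mean counts were set aside in the comparisons, and 16 of those in the gene and marker lists fell in this range. Among them KRT17, ANPEP, CD14 and SNAI2 were at least 4-fold higher in GAS5 than in both other groups, and they were chosen after their values were seen. KRT17, a keratin of stressed and basal epithelium with close pseudogenes, had 3 mean counts in NC cells, 47 in GAS5 cells and 6 in siYAP cells, and the ratio of GAS5 to NC was 16.9 (interval 7.56 to 37.7). ANPEP, the aminopeptidase of the brush border, had 2, 31.5 and 7.5 mean counts, with a ratio of 17.0 (6.43 to 44.9). CD14, a monocyte receptor for bacterial lipopolysaccharide, had 4.5, 37.5 and 3, with a ratio of 8.99 (4.56 to 17.7). By contrast TWIST1, of the mesenchymal list, had 25.5, 7.5 and 10.5, with a ratio of 0.32 (0.18 to 0.56). PDGFRB, of the fibroblast markers, had 17, 7.5 and 11, with a ratio of 0.48 (0.26 to 0.87). TWIST1 and PDGFRB were likewise chosen after their values were seen. Of all 1312 gene sums in this range, 19 were at least 4-fold higher in GAS5 than in both other groups, 4 in siYAP and 2 in NC. With 1 mean per group these values have no replicate check.

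GRHL3, a grainyhead factor of surface epithelium, had 15.5 mean counts in NC cells, 24 in GAS5 cells and 55 in siYAP cells, and the ratio of siYAP to NC was 3.84 (2.59 to 5.71). KRT86, a hair keratin close in sequence to KRT81 and therefore uncertain in its counts, had 7.18, 13.3 and 34.1 mean counts, with a ratio of 5.26 (2.98 to 9.28). Both were also chosen after their values were seen.

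Markers of other cell types were low. Of 7 fibroblast markers only COL1A1 passed the minimum, with 378 mean counts in NC cells, 556 in GAS5 cells and 540 in siYAP cells, while DCN and LUM were at 0 in all groups. Of 6 blood cell markers only CD68 passed, with 202, 280 and 203 mean counts, and PTPRC was at 0 in all groups. The 4 endothelial markers summed to 42.5, 45.5 and 54 mean counts. Of 9 markers of colorectal epithelium 6 passed, and VIL1, LGALS4 and GPA33 did not.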
